A study of Homo sapiens with 8 samples.

Results

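The comparison set out here is between PTB binding sites mapped by UVA GoldCLIP and those of a published iCLIP map of the same protein. Crosslinking and immunoprecipitation (CLIP) recovers the RNA that a protein touches in living cells. Members were all 83725 peaks of the pooled PTB UVA list and all 58213 peaks of the iCLIP list, 141938 of the 266317 peaks in the 5 lists of the series. Peaks within 20 nt of each other on one strand were merged into sites, which gave 70110 UVA sites and 52446 iCLIP sites. The UVA group was 2 samples of 293T cells, a human embryonic kidney line, with a transgene for Halo-tagged PTB, crosslinked with UVA light. The Halo tag bonds covalently to a ligand on beads and so allows capture without a gel. Every line of the series was kept in medium with puromycin, and the labels state neither a promoter nor a clone for the transgene, nor a photoreactive nucleoside for the UVA arm. The iCLIP peaks were re-derived by the submitters from all samples of an earlier study with the same peak-making steps, and the cells of that study are not named in the sources used here. Beside them stand PTB crosslinked with UVC (2 samples) and the controls, Halo-PTB cells without UV (2 samples) and Halo-YFP cells with UVC (2 samples), YFP being a fluorescent protein.

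PTB, the polypyrimidine tract binding protein, binds RNA rich in U and C through its RNA recognition motifs. It is best known as a splicing regulator that represses exons flanked by pyrimidine tracts, and it also acts on the 3′ ends, stability and translation of messenger RNAs. In iCLIP the reverse transcriptase tends to stop at the crosslinked nucleotide, so that the start of a read marks the contact. UVC links protein to the natural bases of RNA, and UVA carries less energy and crosslinks most efficiently at bases that absorb in its range. Per the labels' protocols, library making in the GoldCLIP samples also followed iCLIP.

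Each list pools the samples of its group, so no value has a spread between replicates and no test between conditions was possible. Intervals are 95% intervals of counting error only, exact (Clopper-Pearson) for shares, binomial order statistics for medians, normal on the log scale for ratios of chromosome shares and from an exact binomial interval for ratios in a window, and they treat sites as independent. Depth is unknown, and the number of sites at a locus reflects the amount of RNA as well as binding, which these lists cannot tell apart. All positions are hg19, counted from 1, and loci are given by position and strand, since the gene table used here is on another build. A peak's score is the authors' own, rises as its p-value falls and was taken as limited to 1000. Peaks listed with a p-value and a score of 0 (538 UVA, 104 iCLIP) were set to this limit. A site carries the highest score of its peaks.

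The sites of both lists were alike in form. Median width was 40 nt in UVA (quartiles 25 and 60) and 39 nt in iCLIP (24 and 59), against 49 nt in UVC (39 and 50). The widest site was 845 nt in UVA and 815 nt in iCLIP, and 992 UVA sites and 554 iCLIP sites were wider than 200 nt, against 17 UVC sites. A single peak made up 87.3% of UVA sites, 91.1% of iCLIP sites and 56.3% of UVC sites. The plus strand held 50.6% of UVA and 51.7% of iCLIP sites. Scores were unlike, with a median of 80 per UVA site and 46 per iCLIP site, and 1437 UVA sites against 113 iCLIP sites at the score limit. In UVC the median was 21, with 60 sites at the limit.

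A minority of each map was found in the other, and hardly any of it on the opposite strand. Of the iCLIP sites, 13280 shared at least 1 nt with a UVA site on the same strand (25.3%, interval 24.9 to 25.7), and of the UVA sites 13286 shared at least 1 nt with an iCLIP site (19%, interval 18.7 to 19.2). The same counts on the opposite strand were 26 iCLIP sites (0.0496%) and 26 UVA sites (0.0371%). Sites of the UVC list lay on an iCLIP site in 6.25% of cases (interval 6.09 to 6.42), and iCLIP sites on a UVC site in 9.43% (interval 9.18 to 9.68). UVC sites scored lower, at a median of 21 against 80 in UVA. The part of score in the difference between UVC and UVA was not tested. Control sites met iCLIP too. Of YFP sites 9.91% did so (interval 8.19 to 11.8). For the no-UV control the share was 6.75% (interval 5.77 to 7.84). Both shares lay below that of UVA, and neither lay below that of UVC. YFP sites were wider, at a median of 87 nt, and the part of width was not tested. No site of either control list met iCLIP on the opposite strand, so the contrast between strands was not particular to crosslinked PTB. With equal numbers of top-scoring peaks in the UVA and iCLIP lists, the order of their shares turned, to 25.3% of UVA and 22.6% of iCLIP sites. The UVA share was 12.6% among sites of peaks scoring at least 100 in both lists, and 12.3% when at least 50% of the site had to be covered.

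Sites that missed each other were often close by. A further 4.41% of UVA sites had an iCLIP site within 50 nt, 7.95% had one from 51 to 200 nt away, and 12.2% had one from 201 to 1000 nt away. At the far end, 29.4% had their nearest iCLIP site between 1001 and 10000 nt away and 27.2% beyond that. From the iCLIP side 5.0% of sites had a UVA site within 50 nt without overlap, 8.07% had one from 51 to 200 nt away, and 23.7% had none within 10000 nt. The median distance to the nearest site of the other list was 1898 nt for UVA sites and 981 nt for iCLIP sites. On the opposite strand these medians were 66772.5 nt and 66572.5 nt, so the proximity was strand-specific. UVC sites lay further from iCLIP, with a median of 6278 nt. From the iCLIP side the median distance to UVC was 1717 nt, also above that to UVA. At long range the order turned, since 18.2% of iCLIP sites had no UVC site within 10000 nt, against 23.7% for UVA.

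High-scoring sites were found in the other list more often. Among UVA sites the shared percentage was 3.14% at scores up to 16, 11.2% from 31 to 50, 23.1% from 101 to 200 and 43.0% from 501 to 999, and it was 58.8% at the limit (845 of 1437, interval 56.2 to 61.4). Among iCLIP sites it was 12.6% at scores up to 16, 25.03% from 31 to 50, 31.1% from 101 to 200, 65.9% from 501 to 999 and 73.5% at the limit (83 of 113, interval 64.3 to 81.3). Both lists therefore gave a higher share in every higher band of their own score.

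Wider sites were shared more often, and width moved with score. Of sites up to 20 nt wide, 8.73% of UVA and 10.5% of iCLIP sites were shared, and of those wider than 200 nt, 72.1% (interval 69.2 to 74.8) and 72.7% (interval 68.8 to 76.4). The lists parted when width was held at 30 to 50 nt. In UVA sites of this width the share still went from 3.56% at scores up to 16 (interval 2.90 to 4.31) to 21.5% from 101 to 200 and 31.5% at the limit (interval 24.4 to 39.2). In iCLIP sites of this width it was 14.6% at scores up to 16 (interval 13.3 to 15.9), 21.4% from 17 to 20 (interval 19.2 to 23.7), 24.5% from 31 to 50 (interval 23.1 to 26.0) and 21.4% from 201 to 500 (interval 18.1 to 24.9). So at this width the shared percentage was higher in every higher band of the UVA score. In iCLIP it was lowest at scores up to 16 and stayed between 20.9% and 24.5% from a score of 17 to 999. Only 2 iCLIP sites of this width were at the limit.

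**Figure D1:**
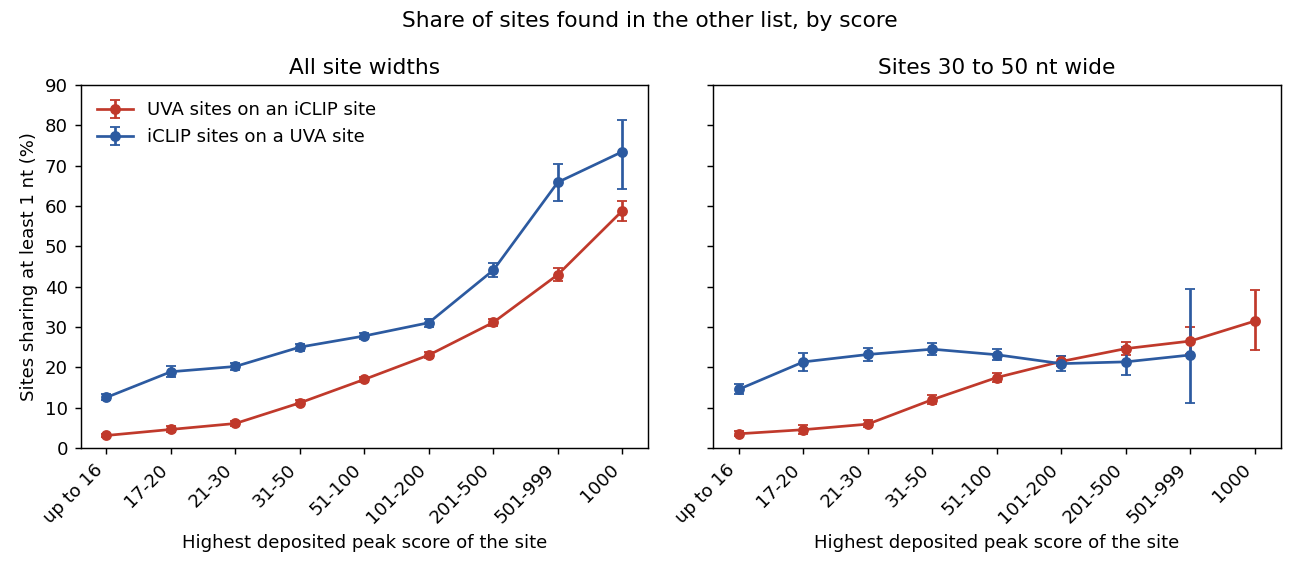
Share of UVA sites on an iCLIP site (red) and of iCLIP sites on a UVA site (blue) in percent, by band of the site's highest deposited score, for all widths (left) and for sites 30 to 50 nt wide (right), with exact 95% intervals and bands of at least 30 sites. At all widths both lines climb to 58.8% and 73.5%, and at 30 to 50 nt the iCLIP line stays between 20.9% and 24.5% from a score of 17 to 999.

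Sites shared by UVA and iCLIP were also found more often in the UVC list, which was not used to choose them. A UVC site covered 23.1% of the UVA sites shared with iCLIP (3069 of 13286, interval 22.4 to 23.8) and 10.1% of the other UVA sites (interval 9.88 to 10.4). For iCLIP sites the values were 22.4% of those shared with UVA (interval 21.7 to 23.1) and 5.05% of the rest (interval 4.83 to 5.27). Shared sites were wider, with medians of 57 against 37 nt in UVA and 55 against 35 nt in iCLIP, which the overlap rule itself favours. At a width of 30 to 50 nt the UVC shares were 13.0% of shared against 8.55% of other UVA sites, and 15.95% against 4.75% of iCLIP sites. The part that score and width play in this difference was not tested further.

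Few sites lay where the controls also gave peaks, but the control lists were short. They held 2341 sites without UV and 1080 sites from YFP, which by itself limits the share of a longer list that can meet them. Seen from the controls, 14.5% of the sites without UV and 21.4% of the YFP sites lay on a UVA site. A control peak was met by 0.766% of UVA sites (interval 0.703 to 0.833) and by 0.465% of iCLIP sites (interval 0.409 to 0.527). This UVA value was 1.31% at scores of at least 100 and 0.442% when at least 50% of the site had to be covered. At the score limit 115 of 1437 UVA sites (8.0%, interval 6.65 to 9.53) and 16 of 113 iCLIP sites (14.2%, interval 8.32 to 21.97) met a control peak. Sites shared between UVA and iCLIP met a control peak more often, at 1.41% against 0.616% of the other UVA sites and 1.29% against 0.186% of the other iCLIP sites. Without peaks on control positions the shares found in the other list were 18.8% of UVA and 25.1% of iCLIP sites.

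Within shared sites the UVA position lay downstream of the iCLIP position. Pairing each site with the one it shared most nucleotides with, in both directions, gave 12723 pairs with a median shared length of 35 nt. The UVA midpoint was downstream, in the direction of transcription, in 8862 pairs and upstream in 3739, and the median offset was 11 nt (interval 10.5 to 11.5; quartiles -3 and 29.5). Both edges moved the same way, with the 5′ edge 8 nt and the 3′ edge 11 nt further downstream in UVA at the median. In the 4177 pairs in which both sites were at most 60 nt wide the median offset was 4.5 nt (interval 4 to 5), and among peaks scoring at least 100 it was 18.5 nt. Per chromosome the median offset ranged from 9 to 13.25 nt and was above 0 on all 23 chromosomes counted (1 to 22 and X). UVC sites were also downstream of the iCLIP sites they overlapped, by a median of 6.5 nt over 4862 pairs (interval 5 to 7.5). Over the 1942 pairs of sites at most 60 nt wide it was 4.5 nt (interval 3 to 5.5), the same median as for narrow UVA pairs. The edges differed between these. In narrow UVA pairs the 5′ edge was at 4 nt and the 3′ edge at 5 nt downstream. In narrow UVC pairs the 5′ edge was at -1 nt (interval -2 to 0) and the 3′ edge at 9 nt (interval 8 to 10). UVA sites lay downstream of the UVC sites they overlapped by 6 nt over all 8621 pairs and by 1.5 nt (interval 0.5 to 2.5) over the 3296 narrow ones. In those narrow pairs the UVA 5′ edge was 7 nt downstream and the 3′ edge 2 nt upstream at the median, so the edges moved in opposite directions.

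The same asymmetry reached past the shared sites. Where the nearest UVA site was 1 to 500 nt from an iCLIP site without overlap, it was downstream in 6370 of 10161 cases (62.7%, interval 61.7 to 63.6). The share was 67.4% within 50 nt, 63.0% from 51 to 200 nt, 58.5% from 201 to 500 nt, 51.4% from 501 to 2000 nt (interval 50.2 to 52.7) and 53.5% from 2001 to 10000 nt (interval 52.5 to 54.5). Within 500 nt it ranged from 55.2% to 68.3% over the 23 chromosomes and its interval lay above 50% on 22 of them. For the nearest UVC site within 500 nt the downstream share was 56.4% (interval 55.5 to 57.3). Around UVC sites the nearest UVA site was downstream in 60.8% of cases within 50 nt and in 49.3% from 51 to 200 nt (interval 47.8 to 50.8). The 209 iCLIP sites whose nearest opposite-strand UVA site lay within 500 nt had it downstream in 63.2% of cases (interval 56.2 to 69.7), so the few neighbours on the opposite strand leaned the same way.

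Counted as densities, UVA midpoints numbered 3.07 per kb and iCLIP site in the first 50 nt downstream and 1.51 in the first 50 nt upstream. From 51 to 100 nt the densities were 1.41 downstream and 0.791 upstream, and over 51 to 500 nt the downstream side held 1.43 times the sites of the upstream side (18411 and 12910). From 951 to 1000 nt both sides were at 0.29 per kb. UVC midpoints gave 1.02 downstream and 0.795 upstream in the first 50 nt, and a ratio of 1.28 over 51 to 500 nt. UVA midpoints on the opposite strand were sparse, with 158 downstream and 96 upstream over 51 to 500 nt (ratio 1.65), and 247 and 158 over 501 to 1000 nt (ratio 1.56). On the same strand that outer ratio was 1.11.

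**Figure D2:**
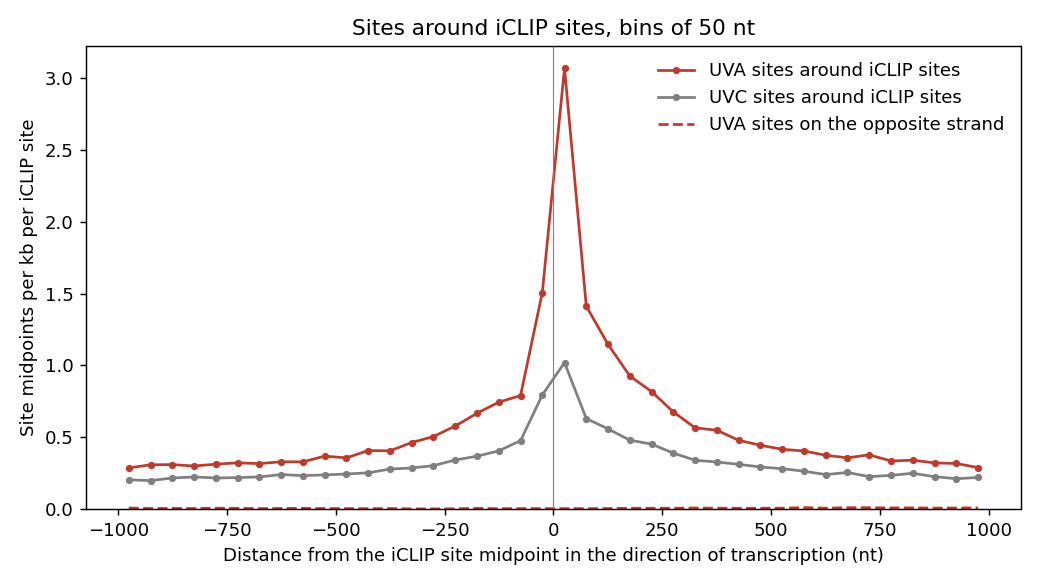
Midpoints of UVA sites (red) and UVC sites (grey) per kb and per iCLIP site, in bins of 50 nt up to 1000 nt on either side of iCLIP site midpoints, with transcription from left to right and UVA sites of the opposite strand dashed. The UVA line is higher on the right, 3.07 against 1.51 per kb next to the iCLIP midpoint, and the dashed line lies near 0, with 158 sites downstream and 96 upstream over 51 to 500 nt.

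Paired sites ranked partly alike by score and less so by width. Across the 12723 pairs the Spearman correlation of UVA and iCLIP scores was 0.42, and that of widths was 0.24. In the 1006 pairs in which both sites were 30 to 50 nt wide the score correlation was 0.56. These are descriptions across sites, which share transcripts and hence RNA abundance. The UVA site was the wider of the pair in 53.5% of cases, with medians of 59 nt for UVA and 56 nt for iCLIP.

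The 5 longest stretches that both maps marked were 307 to 497 nt long. On the plus strand of chromosome 19 the UVA site from 48958110 to 48958611 (502 nt) shared 497 nt with the iCLIP site from 48957982 to 48958606 (625 nt), and both were at the score limit. UVC peaks covered 76 nt of that UVA site. On chromosome 3 (plus) the UVA site from 9860681 to 9861149 shared 394 nt with an iCLIP site from 9860672 to 9861074, at scores of 1000 and 989, and UVC covered 211 nt. On the minus strand of chromosome 19 a UVA site from 40322573 to 40322956 shared 350 nt with iCLIP, at scores of 1000 and 447, and no UVC peak lay on it. The widest UVA site of all, 845 nt on chromosome 16 (plus) from 2810626 to 2811470, enclosed a 315 nt iCLIP site from 2810931 to 2811245. A UVA site on chromosome 5 (plus) from 151190533 to 151190921 enclosed a 307 nt iCLIP site and was the one of these 5 that lay on a control peak. The UVA midpoint was downstream in 4 of these 5 pairs, by 26 to 66.5 nt, and 40 nt upstream at the chromosome 16 site.

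The 5 widest UVA peaks at the score limit met iCLIP peaks scoring from 33 to 102, where the median iCLIP site scored 46. The 5 widest iCLIP peaks at the limit met UVA peaks scoring from 213 up to the limit, where the median UVA site scored 80. Far more UVA than iCLIP sites reach the limit, so these scores are not set against each other. The UVA peak on chromosome 11 from 65765039 to 65765261 (minus strand, 223 nt, score 1000) was covered over 60 nt by an iCLIP peak scoring 44. The UVA peak on chromosome 17 from 41009033 to 41009236 (plus) met an iCLIP peak scoring 102 over 101 nt, which was the best iCLIP score among the 5 widest UVA peaks at the limit. The others met iCLIP peaks scoring 33 on chromosome 16 (68333694 to 68333871, minus), 55 on chromosome 12 (76426549 to 76426723, minus) and 41 on chromosome 5 (154255521 to 154255686, plus). Coverage of these 5 UVA peaks by iCLIP ranged from 22.3% to 49.5%. Seen from iCLIP, the adjoining chromosome 19 peaks from 48958239 to 48958406 and from 48958407 to 48958606 (plus) were covered over 95.8% and 100% by UVA peaks that reached the limit. The iCLIP peak on chromosome 9 from 116170050 to 116170232 (minus) was covered over 61.2% by UVA peaks, also up to the limit. On chromosome 1 (156307649 to 156307825, minus) UVA peaks scoring up to 571 covered 80.2%, and on chromosome 7 (27208386 to 27208577, minus) UVA peaks scoring up to 213 covered 26.6%.

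UVA sites were shifted towards some chromosomes. Chromosome 19 held 6100 UVA and 3390 iCLIP sites, a ratio of shares of 1.35 (interval 1.29 to 1.402). The interval was also above 1 on chromosomes 16 (1.198), 17 (1.19), 22 (1.15), X (1.11) and 11 (1.09), 6 chromosomes in all. It was below 1 on 10 chromosomes, lowest on 18 (0.748, interval 0.686 to 0.815), 4 (0.756) and 13 (0.767), and it held 1 on the other 7. On chromosome 18, the lowest, iCLIP lay between the GoldCLIP arms, with 1.95% of its sites against 1.46% for UVA and 2.48% for UVC.

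Among peaks scoring at least 100, chromosome 19 was at 1.49 (interval 1.38 to 1.61), and 5 of the 6 high and 8 of the 10 low chromosomes kept an interval on their side of 1. Chromosome X was at 0.929 there (interval 0.828 to 1.04). Chromosome 14 turned from 0.921 (interval 0.868 to 0.977) over all sites to 1.24 (interval 1.096 to 1.39), and chromosome 2 from 0.866 to 1.01. Chromosomes 3 and 1, whose intervals held 1 over all sites, were at 1.13 (interval 1.03 to 1.24) and 0.928 (interval 0.877 to 0.982).

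How much of the iCLIP map was found again depended strongly on the chromosome, and how much of the UVA map did so less. UVA sites lay on 38.6% of iCLIP sites of chromosome 19 (interval 37.0 to 40.3), 32.2% on chromosome 17 and 30.6% on chromosome 16, against 15.3% on chromosome 4 (interval 13.8 to 16.96), 18.4% on chromosome 2 and 18.9% on chromosome 13. In the other direction the range was from 15.1% on chromosome 4 to 21.2% on chromosome 19. On chromosomes 4, 13 and 18 both directions gave nearly the same share, where each list had about as many sites as the other (2101 and 2080, 916 and 893, and 1023 and 1023). The number of UVA sites per iCLIP site moved with the share found again, and its part in it was not tested.

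**Figure D3:**
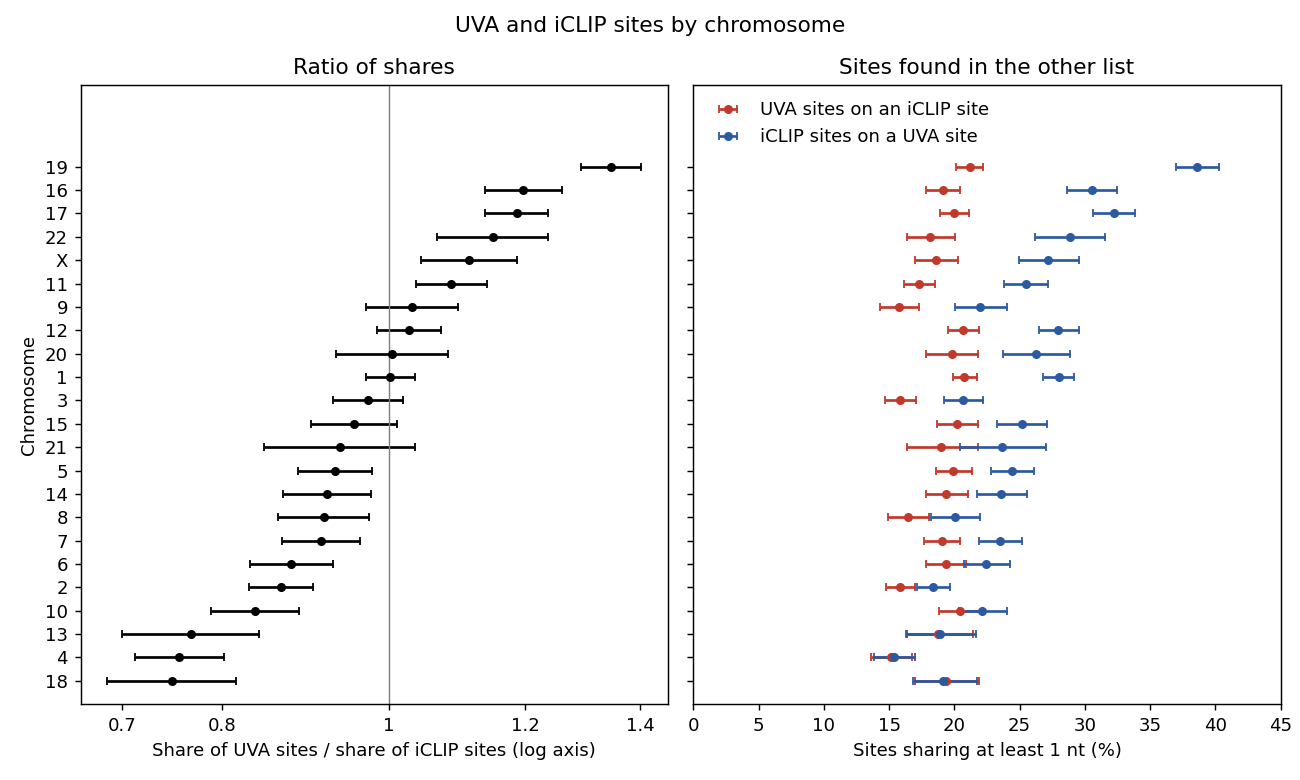
Left, share of all UVA sites on a chromosome divided by the share of all iCLIP sites there (log axis, normal 95% interval). Right, percent of UVA sites on an iCLIP site (red) and of iCLIP sites on a UVA site (blue) with exact 95% intervals, in the same order; chromosome 19 is at the top in the left panel and the blue points spread from 15.3% to 38.6%.

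At the scale of 100 kb, taken per strand, both maps filled largely the same windows. UVA sites lay in 12904 windows, iCLIP sites in 11611 and both in 9007. Over the 14661 windows with at least 1 UVC site, UVA and iCLIP counts had a Spearman correlation of 0.67, UVA and UVC one of 0.39, and iCLIP and UVC one of 0.52. With at least 5 UVC sites (6506 windows) the values were 0.68, 0.24 and 0.36, and with at least 10 (2516 windows) they were 0.65, 0.21 and 0.33. Choosing windows by their UVC count narrows its range and by itself lowers the correlations with UVC, so these are not set against that of UVA with iCLIP. Windows are not independent and share RNA abundance and gene length, so these are descriptions.

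Many windows lay at least 2-fold apart, though at few sites counting error alone can place a window there. Its part in these counts was not tested. Among 4506 windows with at least 10 sites in the pair of lists, the UVA share was at least 2-fold higher in 803 (17.8%) and the iCLIP share in 842 (18.7%), and 2861 (63.5%) lay within 2-fold. Windows without a site in the other list, whose fold was taken against a floor of 3 sites, made up 73 of the 803 and 20 of the 842. A counting interval wholly above 1 was found in 352 windows and one wholly below 1 in 343. The list with more such windows depended on the setting. With equal numbers of top-scoring peaks 801 of 3614 windows (22.2%) were higher in UVA and 610 (16.9%) in iCLIP. With at least 20 sites required the counts were 243 and 130 of 1587 windows, and with scores of at least 100 they were 366 and 232 of 1265. In windows of 500 kb 432 of 3570 were higher in UVA and 631 in iCLIP.

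Both kinds of window occurred on each of the 23 chromosomes, in different proportions. Windows higher in UVA made up 29.4% of those on chromosome 11 (interval 23.7 to 35.6) and 27.0% on chromosome 19 (interval 22.5 to 31.8), against 10.1% on chromosome 4 (interval 5.62 to 16.3). Windows higher in iCLIP made up 5.66% on chromosome 19 (interval 3.54 to 8.52) and 33.1% on chromosome 4 (interval 25.4 to 41.6), with 29.4% on chromosome 6 and 28.6% on chromosome 18. In the windows higher in UVA lay 17.05% of the UVA sites and 4.84% of the iCLIP sites, beside 5.96% of the UVC sites. In those higher in iCLIP lay 16.7% of the iCLIP sites and 5.27% of the UVA sites, beside 9.80% of the UVC sites.

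**Figure D4:**
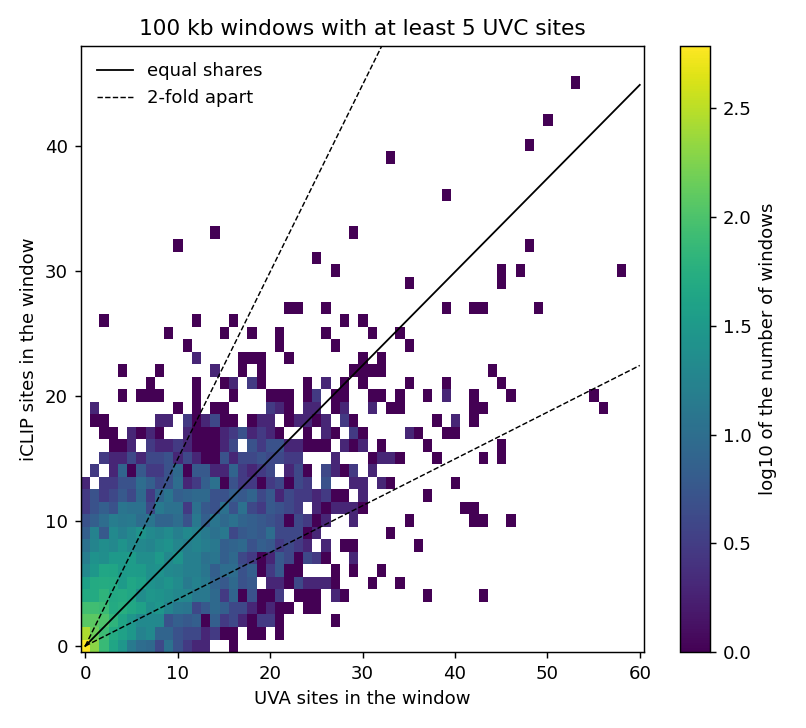
Number of iCLIP sites against number of UVA sites in the strand-specific 100 kb windows with at least 5 UVC sites; colour gives the number of windows at each pair of counts on a log10 scale, the solid line marks equal shares and the dashed lines a 2-fold difference. Most windows lie between the dashed lines or near the origin, and the fullest one plotted, with 53 UVA and 45 iCLIP sites, lies close to the line of equal shares.

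The fullest windows were mostly full in both maps. On the plus strand of chromosome 11, the window from 65100001 to 65200000 held 53 UVA and 45 iCLIP sites, the most iCLIP sites among the windows named, and 27 of its UVA sites lay on an iCLIP site. The next window, from 65200001 to 65300000, held 48 and 40, with 17 UVA sites shared and with 7 control sites without UV and 9 from YFP. Chromosome 16 from 30700001 to 30800000 (plus) held 50 UVA and 42 iCLIP sites, with 21 shared. Chromosome 17 (minus) had 39 and 36 sites between 46600001 and 46700000, and 48 and 32 between 26900001 and 27000000, with 13 and 17 shared. The ratio of shares had an interval that held 1 in each of these 5 windows.

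Other full windows held more sites of one list. The most UVA sites among the windows named were on chromosome 12 from 53800001 to 53900000 (plus), with 58 UVA and 30 iCLIP sites and a ratio of shares of 1.45 (interval 0.915 to 2.33). Between 9000001 and 9100000 on chromosome 19 (minus) there were 56 UVA and 19 iCLIP sites (ratio 2.20, interval 1.29 to 3.93) beside 8 UVC sites, and 6 of its 56 UVA sites were shared. Chromosome 11 from 62300001 to 62400000 (minus) held 55 and 20 (ratio 2.06, interval 1.21 to 3.62), and 14 of its UVA sites were shared. On chromosome 11 from 6500001 to 6600000 (plus) there were 39 iCLIP and 33 UVA sites, an iCLIP over UVA ratio of 1.58 whose interval held 1 (0.968 to 2.59), with 15 UVA sites shared and 6 UVC sites.

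At the extremes a window belonged almost to a single map. Windows in this paragraph were picked as the extremes of the ratio of shares itself. That choice pushes the ratios outward, and the intervals do not allow for it. A window without a site in 1 list was set against the floor of 3 sites. This ranks it below a window with 1 such site and the same count in the other list. Among 1587 windows with at least 20 sites, the highest ratio of shares was on chromosome 19 from 11900001 to 12000000 (plus), with 23 UVA sites, 1 iCLIP site and 1 UVC site (ratio 17.2, interval 2.79 to 709). The next 4 also held 1 iCLIP site each. They were 30000001 to 30100000 on chromosome 16 with 21 UVA sites, 42400001 to 42500000 on chromosome 17 with 21 and 30500001 to 30600000 on chromosome 16 with 20, all on the minus strand, and 800001 to 900000 on chromosome 11 (plus) with 19. Their lower limits of the ratio lay between 2.26 and 2.53. In each of the 5 windows 1 UVA site lay on an iCLIP site. These UVA-rich windows held 1 to 10 UVC sites. In the other direction, 145000001 to 145100000 on chromosome 1 and 56600001 to 56700000 on chromosome 6 (both minus) each held 19 iCLIP sites and 1 UVA site (iCLIP over UVA 25.4, interval 4.04 to 1055), with 18 and 11 UVC sites. Chromosome 1 from 39600001 to 39700000 (plus) held 26 iCLIP, 2 UVA and 24 UVC sites. On chromosome 18 (minus) 45400001 to 45500000 and 71900001 to 72000000 each held 18 iCLIP and 2 UVA sites, with 11 UVC sites in the first and 1 in the second. So UVC sites were present in number in 4 of the 5 iCLIP-rich windows, while the fifth was nearly empty in both GoldCLIP arms.

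UVA sites were packed more closely than iCLIP sites at each distance counted. From a site to its neighbour downstream on the strand the median gap was 1775 nt in UVA (interval 1723 to 1829) and 2617 nt in iCLIP (interval 2516 to 2715). With equal numbers of top-scoring peaks, 58213 in each, UVA stood at 1942 nt (interval 1870 to 2004). A gap of at most 50 nt followed 7.93% of UVA sites and 6.87% of iCLIP sites, one of at most 200 nt 24.3% and 22.9%, and one of at most 10000 nt 71.4% and 65.6%. UVC differed most at short range, with 1.97% within 50 nt and 8.21% within 200 nt, and drew level with iCLIP at 10000 nt (66.5%). Among peaks scoring at least 100 the medians were 3120 nt in UVA and 15363 nt in iCLIP, whose list keeps far fewer peaks at that score.

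The order of the 2 lists in median gap held on 21 of 23 chromosomes. UVA sites were closest on chromosome 19, with a median gap of 1070 nt against 1717.5 nt in iCLIP, and on chromosome 17 (1240 against 2089 nt). The exceptions were chromosome 18, at 2879 nt in UVA and 2732 nt in iCLIP, and chromosome 21, at 2208 and 1467 nt. The share of sites with a gap of at most 200 nt was higher in iCLIP on chromosomes 2, 7, 18, 20 and 21, and higher in UVA on the others.

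**Figure D5:**
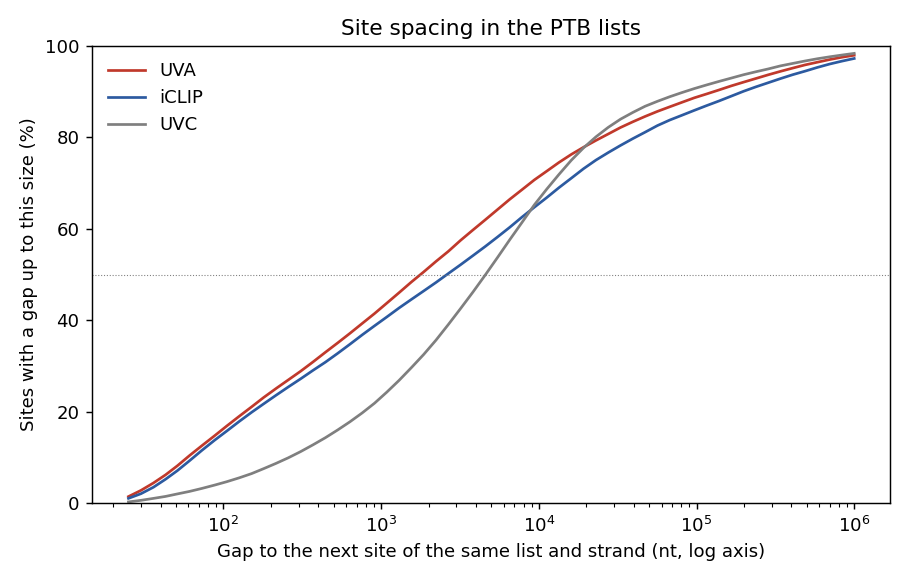
Cumulative percent of sites whose gap to the next site of the same list and strand is at most the distance on the log axis, for UVA (red), iCLIP (blue) and UVC (grey). The UVA line lies above the iCLIP line at 50 nt (7.93% and 6.87%), at 200 nt (24.3% and 22.9%) and at 10000 nt (71.4% and 65.6%), and the UVC line is at 8.21% at 200 nt.

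UVA sites were found again more often the longer their run, and iCLIP sites most often in pairs and in runs of 3 or 4. A run was taken as sites no more than 200 nt apart. Runs of at least 3 sites held 18.3% of UVA sites (3553 runs), 16.7% of iCLIP sites (2446 runs) and 3.53% of UVC sites (875 runs). In UVA the share of sites on an iCLIP site was 15.2% for lone sites (interval 14.8 to 15.5), 22.2% in pairs, 26.5% in runs of 3 or 4 and 30.1% in runs of at least 5 (interval 28.5 to 31.8). In iCLIP the share on a UVA site was 22.8% for lone sites (interval 22.3 to 23.2), 30.4% in pairs (interval 29.6 to 31.3), 28.9% in runs of 3 or 4 and 24.97% in runs of at least 5 (interval 22.97 to 27.1), whose interval overlaps that of lone sites. Scores and widths moved with run length, from medians of 69 and 37 nt in lone UVA sites to 110 and 48 nt in the longest runs. The same medians in iCLIP were 38 and 36 nt, and 77 and 49 nt. Their part in the shares was not tested. Of 507 UVA runs of at least 5 sites, 369 (72.8%, interval 68.7 to 76.6) held an overlap with iCLIP, and of 303 such iCLIP runs 169 (55.8%, interval 49.99 to 61.5) held one with UVA. A run was counted if any of its sites overlapped, so the share of runs rises with their length by construction.

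The runs with the most sites differed between the maps. The UVA run with the most sites among those named, 19 over 2732 nt on chromosome 12 from 57112544 to 57115275 (minus), had 11 of its sites on an iCLIP site, and 6 UVC sites lay in it. A UVA run of 16 sites on chromosome 6 from 116597868 to 116599968 (minus) met 3 iCLIP sites and 5 UVC sites. The UVA run of 13 sites on chromosome 5 from 179045761 to 179047370 (minus) held 5 iCLIP sites, which met 3 of its UVA sites, and the run of 12 on chromosome 5 from 81569657 to 81571084 (minus) met 4 iCLIP sites. A further run of 12 on chromosome 1 from 231468914 to 231470753 (minus) met a lone iCLIP site, beside 5 UVC sites. No control site lay in any of these 5 UVA runs.

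Among the iCLIP runs named, the one with the most sites had 26 over 4102 nt on chromosome 11 from 65198229 to 65202330 (plus), with a median score of 170.5. UVA had 9 sites there, UVC also 9, and 7 of the 26 iCLIP sites lay on a UVA site. By contrast all 11 sites of the iCLIP run on chromosome 11 from 65271154 to 65272529 (plus) lay on UVA sites, which numbered 6, and 3 YFP control sites also fell in it. The iCLIP run of 11 sites on chromosome 5 from 852407 to 854726 (minus), with scores from 194 to the limit, had 3 sites on UVA sites. On chromosome 2 from 225396391 to 225398170 (minus) a run of 11 iCLIP sites with scores from 59 to 338 met no UVA site and 2 UVC sites. The run of 10 iCLIP sites on chromosome 10 from 97896907 to 97898368 (plus) met 1 UVA site and 3 UVC sites.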

How the data were processed

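Peaks were compared between PTB UVA GoldCLIP (2 samples) and a re-analysed iCLIP list, with PTB UVC and 2 controls beside them. The submitters' processing notes name Bowtie 1.1.2, a read aligner, and list hg19 together with dm3. What dm3 was for, the peak caller, its filters and the way replicates were pooled are not stated in the labels. The deposited score of each peak equalled 10 times the negative log10 of its deposited p-value, rounded down, in 97.6% of UVA and 98.5% of iCLIP peaks whose printed p-value was above 0; no deposited p-value was above 0.05. Peaks with a p-value and score of 0 (538 UVA, 104 iCLIP) were set to the limit of 1000. Depth is unknown.

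Peaks within 20 nt were merged, and overlap needed 1 nt on one strand. Windows were aligned to multiples of 100 kb and sites placed by midpoint. The code was tested on simulated data, and its site and overlap counts equalled those of bedtools 2.31.1 in 25 of 25 comparisons. Counting ran in Python 3.11.15 (numpy 2.4.6, pandas 2.3.3), intervals came from scipy 1.17.1 and plots from matplotlib 3.10.9. Named loci followed a rule: the 5 windows with the most UVA, iCLIP or shared sites, the 5 with the highest and lowest ratio among those with at least 20 sites, the 5 longest shared sites, the 5 runs with the most sites and the 5 peaks of highest score (ties by width) in each list. A chromosome X locus that the rules for most UVA sites and for UVA runs picked is not reported or plotted here, and the next in order took its place; it stays in all counts. The lists and rules were chosen with earlier results of these data known. No hg19 sequence was used here, so none is shown.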

Additional observations from a re-analysis of the deposited data

How the results depend on the processing

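Of 76 recomputed values, 42 stayed within the main value's counting interval (or within 1.5 times a count of windows) and 34 moved further. This tally does not measure robustness, since some settings could hardly move a value. Chromosomes 1 to 22 and X held 70101 of the 70110 UVA sites, and equal numbers of peaks left the iCLIP list unchanged. Counts of windows were compared although the number of windows examined also changed with most settings. The order of the lists turned in some comparisons. Over all peaks iCLIP had more windows at least 2-fold higher (842 against 803 of 4506). UVA had more with equal numbers of peaks (801 against 610 of 3614), scores of at least 100 and a minimum of 20 sites. It also had more with touching peaks only merged (883 against 876 of 4651). The same held for merging within 50 nt (742 against 625 of 4201) and windows of 50 kb (878 against 748 of 4178). The share found in the other list was larger for iCLIP over all peaks and for UVA with equal numbers. Chromosome 14 went from 0.921 to 1.24 at scores of at least 100. Settings for the downstream share were added after the data had been seen. Keeping scores of at least 100 gave 12.6% of UVA sites in iCLIP and 30.7% of iCLIP sites in UVA, a chromosome 19 ratio of 1.49, median gaps of 3120 nt (UVA) and 15363 nt (iCLIP), 366 and 232 windows at least 2-fold higher in UVA and iCLIP, an offset of 18.5 nt, 1.31% of UVA sites on controls and a downstream share of 69.6%. Equal numbers of top-scoring peaks gave 25.3%, 22.6%, a ratio of 1.43, a UVA gap of 1942 nt, 1.01% on controls and 64.1% downstream. Merging only touching peaks gave gaps of 1497 and 2311.5 nt and an offset of 9.5 nt. Merging within 50 nt gave 19.3% and 25.7%, gaps of 2430 and 3567.5 nt and an offset of 14 nt. Coverage of at least 50% gave 12.3%, 17.7% and, on controls, 0.442%. Midpoints within 50 nt gave 21.3% and 28.1%. Ignoring strand gave a UVA gap of 1663.5 nt. A minimum of 20 sites left 243 and 130 windows, windows of 500 kb gave 432 higher in UVA, and pairs of narrow sites gave an offset of 4.5 nt. The cause of these moves was not tested.

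No paired analysis was possible because each group has a single list without replicate names, and for the same reason no fit without a replicate was run. Scores rest on depths that are unknown, so a score of at least 100 keeps unlike parts of the lists. Intervals cover counting error only.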

Other observations

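Differences between the maps were only partly shared by the strands of a window. At 468 positions both strands had at least 10 UVA and iCLIP sites together, and the ratio of shares lay on the same side of 1 on both strands at 283 of them (60.5%). Both strands were at least 2-fold apart in the same direction at 49 positions and in opposite directions at 20.

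Seen from the controls, UVA sites covered 14.5% of the sites found without UV (340 of 2341, exact 95% interval 13.1 to 16.02) and 21.4% of the YFP sites (231 of 1080, interval 18.98 to 24.0). The iCLIP list covered 6.75% (interval 5.77 to 7.84) and 9.91% (interval 8.19 to 11.8) of them.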
